A study of Mus musculus with 14 samples.

Results

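Mitochondrial DNA gave 37 of the 37991 gene rows in the count tables of this study: the rows whose Ensembl gene ID carries a symbol that starts with mt-. They are 13 messenger RNAs (mRNAs), 2 ribosomal RNAs (rRNAs) and 22 transfer RNAs (tRNAs). They were chosen by name and class, not by any measured value. The libraries are poly(A)-selected RNA-seq of J1 mouse embryonic stem cells (strain 129S4/SvJae), 14 in all, with 2 in each of 7 groups. Experiment 1 holds wild-type cells and Dnmt-TKO cells, each given the solvent DMSO or PRT4165, an inhibitor of the chromatin complex PRC1 that places ubiquitin on histone H2A. Experiment 2 holds untreated wild-type, Dnmt-TKO and Tet1-KO Dnmt-TKO cells. Dnmt-TKO (TKO below) is the usual name of cells that lack the DNA methyltransferases Dnmt1, Dnmt3a and Dnmt3b, and Tet1-KO cells lack the enzyme Tet1, which oxidises methylated cytosine. Wild type is written WT. All 7 groups share the J1 background, and the sources used here give neither dose nor duration of PRT4165. The labels number 2 replicates in each group without saying that they came from separate cultures or clones, so each p-value rests on a spread between libraries that may be only technical, and a genotype cannot be told apart from the line that carries it.

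The mitochondrial genome is a small circle that codes for core subunits of the respiratory chain and for the RNAs of the mitochondrial ribosome. Both strands are transcribed as long precursors, from which the tRNAs that lie between most other genes are cut out. Most of the freed mRNAs and the rRNAs then receive short poly(A) tails. The libraries are poly(A)-selected, so counts, those of mt-Nd6 included, also depend on tails, which were not measured. RNA polymerase, processing enzymes and most subunits of each respiratory complex come from nuclear genes. Levels of single mitochondrial mRNAs therefore depend on transcription of the whole circle and on how long each RNA lasts after it has been cut free. Complex I (NADH dehydrogenase) passes electrons from NADH to ubiquinone, complex III (cytochrome bc1) on to cytochrome c, complex IV (cytochrome c oxidase) on to oxygen, and complex V is the ATP synthase.

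Of the 37 genes, 28 are copied from the heavy-strand template and 9 from the light-strand template, the latter being 8 tRNAs and mt-Nd6. The mRNAs code for 7 subunits of complex I (mt-Nd1, mt-Nd2, mt-Nd3, mt-Nd4, mt-Nd4l, mt-Nd5 and mt-Nd6), 1 of complex III (mt-Cytb), 3 of complex IV (mt-Co1, mt-Co2 and mt-Co3) and 2 of complex V (mt-Atp6 and mt-Atp8). The rRNAs are mt-Rnr1 of the small and mt-Rnr2 of the large subunit of the mitochondrial ribosome. Gene sequences limit what can be counted, so the overlapping and weakly counted ones are printed here from GENCODE M21 transcripts (GRCm38), 5′ to 3′. The mt-Nd4l mRNA runs into the mt-Nd4 reading frame and shares its last 7 bases, in capitals in both, with the start of mt-Nd4, of which the first 90 bases are shown:
mt-Nd4l: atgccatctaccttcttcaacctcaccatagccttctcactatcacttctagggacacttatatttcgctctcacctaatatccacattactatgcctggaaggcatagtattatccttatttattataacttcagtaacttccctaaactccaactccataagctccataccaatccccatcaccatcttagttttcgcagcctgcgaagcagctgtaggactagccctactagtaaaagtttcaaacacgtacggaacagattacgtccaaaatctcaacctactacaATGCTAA
mt-Nd4: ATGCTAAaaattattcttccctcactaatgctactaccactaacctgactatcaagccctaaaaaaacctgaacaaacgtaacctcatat
The mt-Atp8 mRNA shares its last 43 bases, in capitals, with the start of mt-Atp6, of which 90 bases are again shown:
mt-Atp8: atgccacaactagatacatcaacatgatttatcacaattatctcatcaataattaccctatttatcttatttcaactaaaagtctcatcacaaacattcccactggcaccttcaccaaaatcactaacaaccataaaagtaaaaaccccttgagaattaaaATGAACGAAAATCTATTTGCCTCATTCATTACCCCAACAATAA
mt-Atp6: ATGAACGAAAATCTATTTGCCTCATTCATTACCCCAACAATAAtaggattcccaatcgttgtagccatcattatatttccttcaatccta
The ends of mt-Nd5 and mt-Nd6 face each other on opposite strands. The capitals in their last 90 bases mark the 14 bases that pair with each other:
mt-Nd5: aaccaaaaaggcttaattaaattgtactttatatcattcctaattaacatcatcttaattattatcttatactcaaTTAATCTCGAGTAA
mt-Nd6: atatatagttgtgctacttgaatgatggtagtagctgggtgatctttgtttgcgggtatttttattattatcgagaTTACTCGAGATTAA
The 1 tRNA with enough counts to be tested was mt-Tp, which carries proline. Its capitals mark the anticodon letters:
mt-Tp: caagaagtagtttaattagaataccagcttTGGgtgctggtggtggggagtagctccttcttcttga

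The library kit does not mark strand, so reads from mt-Nd6 or mt-Tp and from RNA of the opposite strand cannot be told apart. Nuclear DNA holds near-identical copies of some of these genes. In the annotation used, copies of at least 98% identity covered 99.6% of mt-Co2, 99.6% of mt-Atp6, 99.9% of mt-Co3, 99.1% of mt-Nd3, 99.0% of mt-Nd4l, 63.6% of mt-Nd4 and 31.3% of mt-Co1. No such copy of at least 100 bases was found for the other mRNAs or the rRNAs. The tRNAs, at 59 to 75 bases, are shorter than this limit, so the search could not find copies of them. How reads that fit both places were counted is not known, so the levels of the 7 genes with copies are uncertain.

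Library totals lay between 23354015 and 41844823 counts. The targeted genes followed the labels in level but were not at 0. Dnmt1 lay between 305 and 434 CPM (counts scaled to library size) in WT libraries and between 116 and 158 CPM in TKO libraries, and Tet1 between 134 and 201 CPM in Tet1-KO TKO libraries against 401 to 791 CPM elsewhere. All 12 pluripotency markers listed, among them Pou5f1, Sox2 and Nanog, had counts in every library, with a summed level of 3989 to 9025 CPM. Feeder fibroblast markers summed to 5.64 to 13.1 CPM. Libraries of 2 groups stood apart from their partners. The higher divided by the lower CPM over the 15 tested mitochondrial genes had a median of 1.33 and a maximum of 1.77 in WT DMSO cells, and 1.73 and 3.09 in untreated WT cells. In the other 5 groups that median was 1.02 to 1.22. These groups are controls in all comparisons below other than PRT4165 against DMSO in TKO cells and Tet1-KO TKO against TKO cells. In untreated WT cells replicate 2 was above replicate 1 for all 15 members, and in untreated TKO and Tet1-KO TKO cells for all but mt-Rnr1. In bulk RNA, fewer cells with a transcript and less of it per cell cannot be told apart.

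Mitochondrial mRNAs took a few percent of each library. Their share of all counts was 2.38 and 3.197% in the WT DMSO libraries and 1.87 and 1.91% in the WT PRT4165 libraries. In TKO cells it was 3.34 and 3.30% with DMSO and 2.52 and 2.77% with PRT4165. Both inhibitor libraries lay below both vehicle libraries in each genotype, and the TKO vehicle libraries lay above the WT ones. In experiment 2 the share was 4.05 and 6.55% in the WT libraries. TKO libraries there had 5.16 and 5.38%, and Tet1-KO TKO libraries 5.61 and 6.46%. There the WT pair enclosed the TKO pair and both Tet1-KO TKO libraries. Experiment 2 was higher than experiment 1 in each shared genotype, but the experiments were counted in separate tables and this was not tested. With 2 libraries against 2 an exact permutation test cannot pass the threshold, so no test of shares was made.

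**Figure D1:**
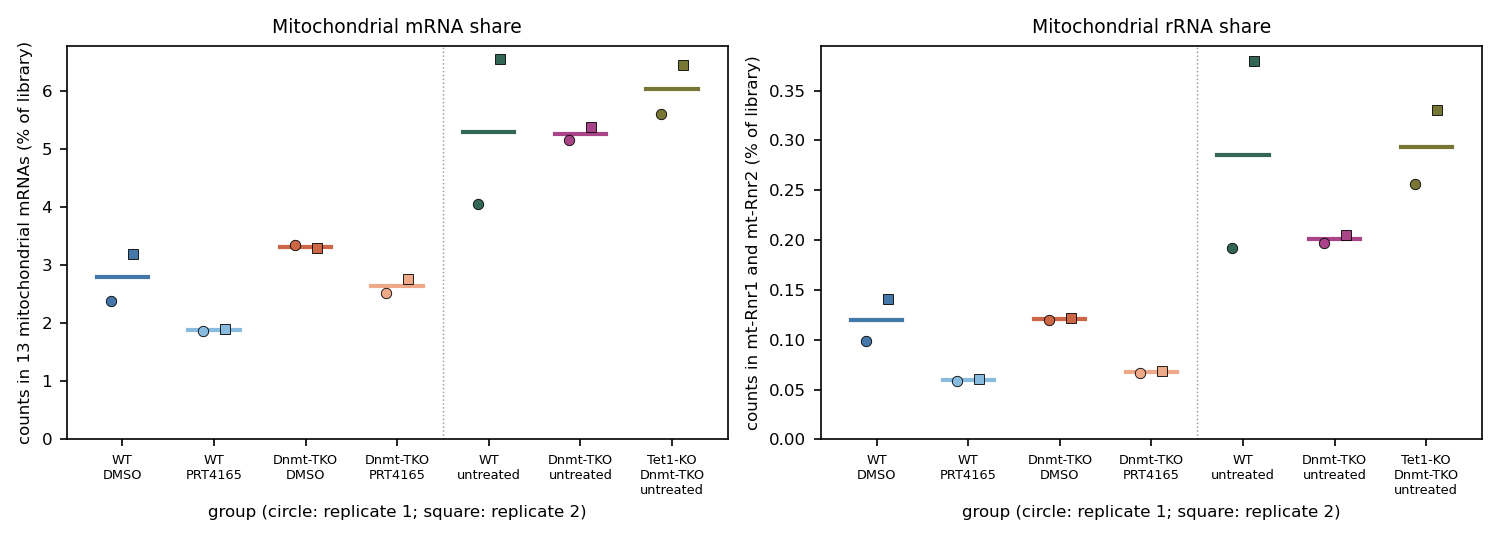
Share of library counts (%, vertical axis) in the 13 mitochondrial mRNAs (left) and in mt-Rnr1 and mt-Rnr2 (right) for the 7 groups. Circles and squares are replicates 1 and 2, lines are group means and the dotted line parts the experiments; the mRNA share ran from 1.87% to 6.55% and the rRNA share from 0.0584% to 0.379%.

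Within the mitochondrial mRNA counts the complexes kept a similar order in all libraries. Complex IV took 53.6% to 64.1%, complex I 25.7% to 33.7%, complex III 8.17% to 12.7% and complex V 1.32% to 1.81%. mt-Co1, the catalytic subunit of complex IV, alone held 28.8% to 37.3% of these counts. Levels between genes were compared per length, as TMM-scaled CPM per kilobase of transcript. In WT DMSO cells, mt-Co1 had the highest mean level per length, 5895 ± 1229 (SD, n = 2), followed by mt-Co2 at 5463 ± 507 and mt-Co3 at 4224 ± 516. Next came mt-Nd1 at 3409.7 ± 686 and mt-Cytb at 2769 ± 787 CPM per kilobase. The remaining complex I mRNAs followed from mt-Nd4 at 1690.4 ± 481 through mt-Nd2, mt-Nd3 and mt-Nd5 to mt-Nd6 at 844 ± 164. Both ATP synthase mRNAs were lowest, mt-Atp6 at 465 ± 13.1 and mt-Atp8 at 464 ± 183 CPM per kilobase. Neighbours in this order differed by less than their SDs together, apart from the steps from mt-Co2 to mt-Co3 and from mt-Nd6 to mt-Atp6.

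The order per length was the same in TKO DMSO cells, apart from the ATP synthase pair. With PRT4165, mt-Nd1 moved from the fourth to the sixth place in both genotypes, at 1193 ± 11.2 CPM per kilobase in WT and 1447 ± 163 in TKO cells, below mt-Cytb and mt-Nd4. In experiment 2 the 3 complex IV mRNAs again stood highest, but their order differed between groups. In untreated TKO cells mt-Co1 was at 10658 ± 25.7, mt-Co2 at 10179 ± 359 and mt-Co3 at 9767 ± 655 CPM per kilobase. mt-Co3 came first in untreated WT cells, at 12884 ± 6016, before mt-Co2 at 11455 ± 4316 and mt-Co1 at 10503 ± 2978, with SDs larger than these steps. In Tet1-KO TKO cells mt-Co2 came first, at 13567 ± 1514, and mt-Co3 at 12820.1 ± 1270.1 and mt-Co1 at 12744 ± 1032 followed, again within their SDs.

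**Figure D2:**
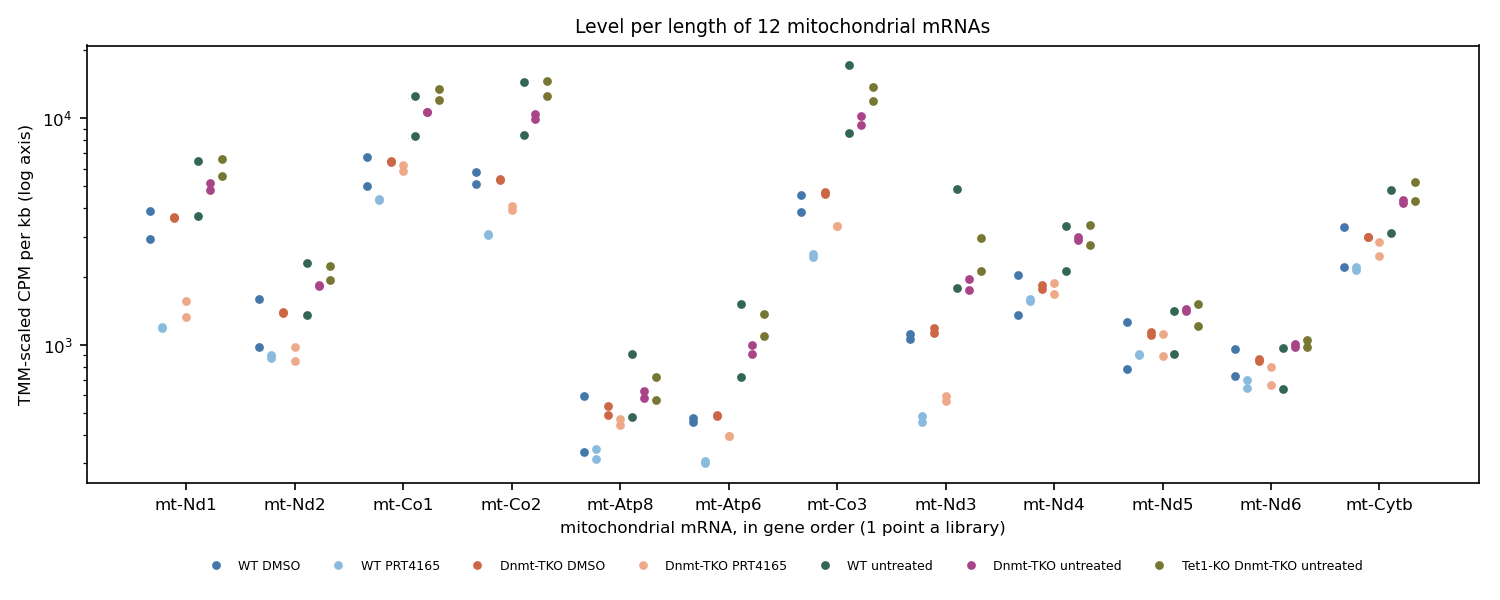
TMM-scaled CPM per kilobase (log axis) of the 12 tested mitochondrial mRNAs in gene order, 1 point per library, coloured by group. mt-Co1, mt-Co2 and mt-Co3 stood highest in each group, and mt-Nd1 and mt-Nd3 dropped in the 4 PRT4165 libraries. Paired points lay farthest apart in WT DMSO and untreated WT cells by the median over members, not for every mRNA. The experiments were scaled separately.

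Not all members could be measured. mt-Nd4l, a small membrane subunit of complex I, had 0 to 2 counts per library, 11 counts in all in 8 libraries. mt-Nd4, which follows it on the same precursor and overlaps it by 7 bases, had 52095 to 190218. No tRNA gene lies between mt-Nd4l and mt-Nd4, or between mt-Atp8 and mt-Atp6, which overlap by 43 bases. Counts per gene do not show whether the genes of each pair share a single RNA, so differences within a pair may lie in how reads were assigned. The nuclear copy Gm10222, which matches 99.0% of mt-Nd4l and is the only copy with a row of its own in the tables, had 19 to 109 counts. Of the 22 tRNAs, 19 had 0 counts in all 14 libraries, each of which allows up to 3 counts of the library total. mt-Tn, for asparagine, had 0 to 11 counts and mt-Tc, for cysteine, 0 to 2. mt-Tp stood out with 99 to 2183. This limit covers counting error only. The filter on low counts kept 12 mRNAs, both rRNAs and mt-Tp, 15 of the 37 members, in both experiments, and the tests below concern these 15.

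The first comparison asks what PRT4165 changed in WT cells. Of the 12 tested mitochondrial mRNAs, 10 fell and none rose with the inhibitor (median log2 change -0.51, against 0.01 over all genes), where 37.6% of all genes tested were called, 18.7% lower and 19.0% higher. The fall was uneven along the genome. It was largest in the complex I mRNAs mt-Nd1 and mt-Nd3, next in mt-Co2, mt-Co3 and mt-Atp6, and then in mt-Nd2, mt-Atp8 and mt-Co1. It was smallest or not called in mt-Nd4, mt-Nd5, mt-Nd6 and mt-Cytb, the tested mRNAs that lie after mt-Nd3 in gene order. Across the 11 tested heavy-strand mRNAs, the change had Pearson's r of 0.59 and Spearman's rho of 0.55 with gene order. In TKO cells these were 0.59 and 0.43. mt-Nd1, first in this order, had the largest fall, and the correlation without it was not computed. mt-Nd3 fell more than every tested mRNA that lies between mt-Nd1 and mt-Nd3, so the fall did not lessen steadily along the genome. The large rRNA mt-Rnr2 and mt-Tp fell as well, and the small rRNA mt-Rnr1 did not pass the test.

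mt-Nd1, a core subunit of complex I in the membrane, was at 2799 and 3727 CPM in the DMSO libraries and 1134 and 1149 CPM in the PRT4165 libraries. All inhibitor values lay far below all vehicle values, a level 2.86-fold lower (log2 change -1.52 ± 0.0834 SE, edgeR adjusted p = 9.07e-13). mt-Nd3, another membrane subunit of complex I, went from 368 and 389.6 to 158 and 168 CPM, 2.33-fold lower (log2 change -1.22 ± 0.0485 SE, edgeR adjusted p = 1.76e-15). Its 4 values formed narrow pairs with a wide gap. mt-Nd2, which also belongs to the membrane arm, was at 1014 and 1651 with DMSO and 906 and 935 CPM with PRT4165 (log2 change -0.53 ± 0.115 SE, edgeR adjusted p = 0.000709). Both inhibitor values were under the lower vehicle value, but the vehicle pair itself was widely spread. mt-Nd6, the light-strand mRNA, was at 378 and 498 and then 362 and 333 CPM (log2 change -0.33 ± 0.0838 SE, edgeR adjusted p = 0.00287).

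mt-Nd4 and mt-Nd5, large membrane subunits of complex I, gave no call. mt-Nd4 was at 1861 and 2798 CPM with DMSO and 2146 and 2202 CPM with PRT4165, so that the inhibitor values lay between the vehicle values. Its log2 change was -0.10 ± 0.0991 (SE; edgeR adjusted p = 0.459), with an interval of 2 SE from -0.30 to 0.098. For mt-Nd5 the values were 1419.8 and 2286 and 1658 and 1642 CPM, with a log2 change of -0.17 ± 0.118 (SE; edgeR adjusted p = 0.282) and an interval from -0.40 to 0.068. These intervals did not reach a fall of the size seen for mt-Nd1 or mt-Nd3, but they rest on 2 unlike vehicle libraries.

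mt-Cytb, the only mitochondrial subunit of complex III, was at 2530.5 and 3804 CPM with DMSO and 2529.8 and 2446 CPM with PRT4165 (log2 change -0.35 ± 0.101 SE, edgeR adjusted p = 0.00809). The lower vehicle library was within 1 CPM of an inhibitor library. All 3 complex IV mRNAs fell. mt-Co2, which holds the copper site that takes electrons from cytochrome c, went from 3491 and 3982 to 2083 and 2112 CPM (log2 change -0.83 ± 0.0530 SE, edgeR adjusted p = 1.42e-11). mt-Co3 went from 3026 and 3598 to 1919 and 1962 CPM (log2 change -0.77 ± 0.0575 SE, edgeR adjusted p = 2.44e-10). The values of both genes with PRT4165 were all below those with DMSO. mt-Co1, the most counted member, went from 7765 and 10450.2 to 6777 and 6705 CPM, a smaller change (log2 change -0.43 ± 0.0781 SE, edgeR adjusted p = 0.000103). Of the ATP synthase mRNAs, mt-Atp6 was at 310.5 and 323 and then 209 and 204 CPM (log2 change -0.62 ± 0.0433 SE, edgeR adjusted p = 8.61e-11). mt-Atp8 was at 68.4 and 121 and then 70.9 and 63.9 CPM, with vehicle and inhibitor values that overlapped (log2 change -0.49 ± 0.134 SE, edgeR adjusted p = 0.00527).

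The rRNAs changed by different amounts. mt-Rnr2 was at 894 and 1314 CPM with DMSO and 478 and 497 CPM with PRT4165, 2.27-fold lower with no overlap (log2 change -1.18 ± 0.0939 SE, edgeR adjusted p = 7.35e-10). mt-Rnr1, its upstream neighbour, was at 139 and 172 and 146 and 137 CPM, with overlapping values (log2 change -0.14 ± 0.0655 SE, edgeR adjusted p = 0.105). The number of mt-Rnr2 counts per mt-Rnr1 count was 6.44 and 7.64 with DMSO and 3.28 and 3.62 with PRT4165. mt-Tp was at 10.4 and 10.6 CPM and then 4.48 and 4.04 CPM (log2 change -1.29 ± 0.122 SE, edgeR adjusted p = 1.22e-08), on counts of 99 to 341 per library.

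Results in WT cells depended on the 2 unlike DMSO libraries. Without DMSO replicate 1 all 12 mRNAs were called lower. Without DMSO replicate 2, 6 were called lower and 2 higher, the latter being mt-Nd4 at 0.23 and mt-Nd5 at 0.22 log2. The calls of mt-Nd2, mt-Atp8, mt-Nd6 and mt-Cytb were then lost, at -0.13, -0.00917, -0.11 and -0.018. Without PRT4165 replicate 2, the calls of mt-Atp8, mt-Nd6 and mt-Cytb were also lost, at -0.41, -0.26 and -0.31. A group left with 1 library was assumed to vary like the others. mt-Nd1, mt-Nd3, mt-Co1, mt-Co2, mt-Co3, mt-Atp6, mt-Rnr2 and mt-Tp kept their call in every alternative run. The change of mt-Nd1 was -1.29 log2 without DMSO replicate 2 and -1.70 without DMSO replicate 1.

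Other measures moved with the inhibitor in WT cells. Small nucleolar RNAs, which lack poly(A) tails, took 0.00979 and 0.00860% of counts with DMSO and 0.00329 and 0.00411% with PRT4165. Replication-dependent histone RNAs, which also lack such tails, took 0.00290 and 0.00277% with DMSO and 0.00254 and 0.00303% with PRT4165, with overlapping values. The 7 trophoblast markers summed to 8.58 to 9.64 CPM with DMSO and 13.5 to 14.3 CPM with PRT4165. Of these 7, 3 were called higher, where 19.0% of all genes were. Tpbpa was at 0 in 6 and Elf5 in 3 of the 14 libraries. The 12 pluripotency markers summed to 7164 to 7273 and 6117 to 6419 CPM, and the 10 endoderm markers to 237 to 255 and 293 to 294 CPM. The part of these in the mitochondrial changes was not tested. The gene pattern also had a counterpart between replicates of experiment 2. Across the 15 tested members, the change with PRT4165 in WT cells had Pearson's r of -0.74 and Spearman's rho of -0.80 with the log2 difference of replicate 2 minus replicate 1 in untreated WT cells. With that difference in untreated TKO cells r was -0.64 and rho -0.79, and in Tet1-KO TKO cells r was -0.55 and rho -0.46. The change with PRT4165 in TKO cells had r of -0.54 and rho of -0.66 with the untreated WT difference. With the untreated TKO difference r was -0.37 and rho -0.61, and with the Tet1-KO TKO difference -0.38 and -0.29. Members with a larger fall under PRT4165 in WT cells thus tended to be those with a larger excess of untreated replicate 2 over replicate 1. This was weaker for the change in TKO cells. These are descriptions across genes of 1 genome, which are not independent, and the libraries are separate ones. The 6 tested mRNAs with a near-identical nuclear copy and the 6 without one each had 5 called lower, with medians of -0.69 and -0.42 log2.

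In TKO cells, 7 of the 12 mRNAs fell with PRT4165 and none rose (median log2 change -0.27, against -0.0026 over all genes), where 39.5% of genes tested were called, 19.6% lower and 19.9% higher. Complex I contributed 4 of its 6 tested mRNAs, complex IV 2 of 3, complex V 1 of 2, and complex III none. Both rRNAs and mt-Tp fell too. In these cells the vehicle replicates were close together.

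mt-Nd1 was at 3521 and 3456 CPM in the TKO DMSO libraries and 1274 and 1494 CPM in the PRT4165 libraries, 2.52-fold lower without overlap (log2 change -1.33 ± 0.0829 SE, edgeR adjusted p = 8.37e-12). As a share of mitochondrial mRNA counts it went from 11.2 and 11.04% to 5.28 and 5.67%, and in WT cells from 11.2 and 11.1% to 5.68 and 5.77%. So its place within the mitochondrial mRNAs dropped by similar amounts in both genotypes. mt-Nd3 was at 393 and 413 and then 196 and 207 CPM (log2 change -1.003 ± 0.0477 SE, edgeR adjusted p = 6.19e-14), and mt-Nd2 at 1439 and 1442 and then 883 and 1016 CPM (log2 change -0.60 ± 0.115 SE, edgeR adjusted p = 0.000192). mt-Nd6 went from 449.6 and 438 to 344 and 413 CPM, a small change (log2 change -0.23 ± 0.0834 SE, edgeR adjusted p = 0.0307) that was lost without DMSO replicate 1 (-0.23), DMSO replicate 2 (-0.27) or PRT4165 replicate 1 (-0.12), and under DESeq2 (-0.23). The call of mt-Nd2 was lost under DESeq2 (-0.60). The other 8 members called in TKO cells kept their call in every alternative run.

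mt-Co3 was at 3625 and 3709 CPM with DMSO and 2632 and 2628 CPM with PRT4165 (log2 change -0.48 ± 0.0572 SE, edgeR adjusted p = 4.18e-07). mt-Co2 was at 3708 and 3656 and 2678 and 2805 CPM (log2 change -0.43 ± 0.0527 SE, edgeR adjusted p = 7.25e-07). Inhibitor values of both were all below vehicle values. mt-Atp6 was at 330.0 and 334 and 268 and 269 CPM (log2 change -0.31 ± 0.0427 SE, edgeR adjusted p = 3.88e-06). Among those not called, mt-Co1 was at 9990.4 and 9869 and 9007 and 9575 CPM, a log2 change of -0.096 ± 0.0779 (SE; edgeR adjusted p = 0.354) with an interval from -0.25 to 0.060. mt-Nd4 was at 2523 and 2439 and 2316 and 2585 CPM, with overlapping values and a change of -0.018 ± 0.0990 (SE; edgeR adjusted p = 0.91). mt-Nd5, mt-Cytb and mt-Atp8 had changes of -0.16, -0.18 and -0.17 log2 that did not pass the test.

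mt-Rnr2 went from 843 and 843 to 389.9 and 413 CPM in TKO cells (log2 change -1.07 ± 0.0939 SE, edgeR adjusted p = 3.4e-09) and mt-Rnr1 from 290.2 and 309 to 247 and 241 CPM (log2 change -0.30 ± 0.0627 SE, edgeR adjusted p = 0.000576). The large rRNA thus fell more, and mt-Rnr2 counts per mt-Rnr1 count were 2.91 and 2.73 with DMSO and 1.58 and 1.71 with PRT4165. mt-Tp went from 16.5 and 17.5 to 9.40 and 11.2 CPM (log2 change -0.73 ± 0.0980 SE, edgeR adjusted p = 2.33e-06). Beside these, small nucleolar RNAs took 0.0116 and 0.0117% and then 0.00535 and 0.00634% of counts. Replication-dependent histone RNAs took 0.00569 and 0.00550% with DMSO and 0.00459 and 0.00450% with PRT4165. The trophoblast markers summed to 131.5 to 134.7 and then 182 to 186 CPM, with 4 of 7 called higher, where 19.9% of all genes were. The pluripotency markers summed to 5235 to 5269 and then 3989 to 4184 CPM. Their part was not tested.

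**Figure D3:**
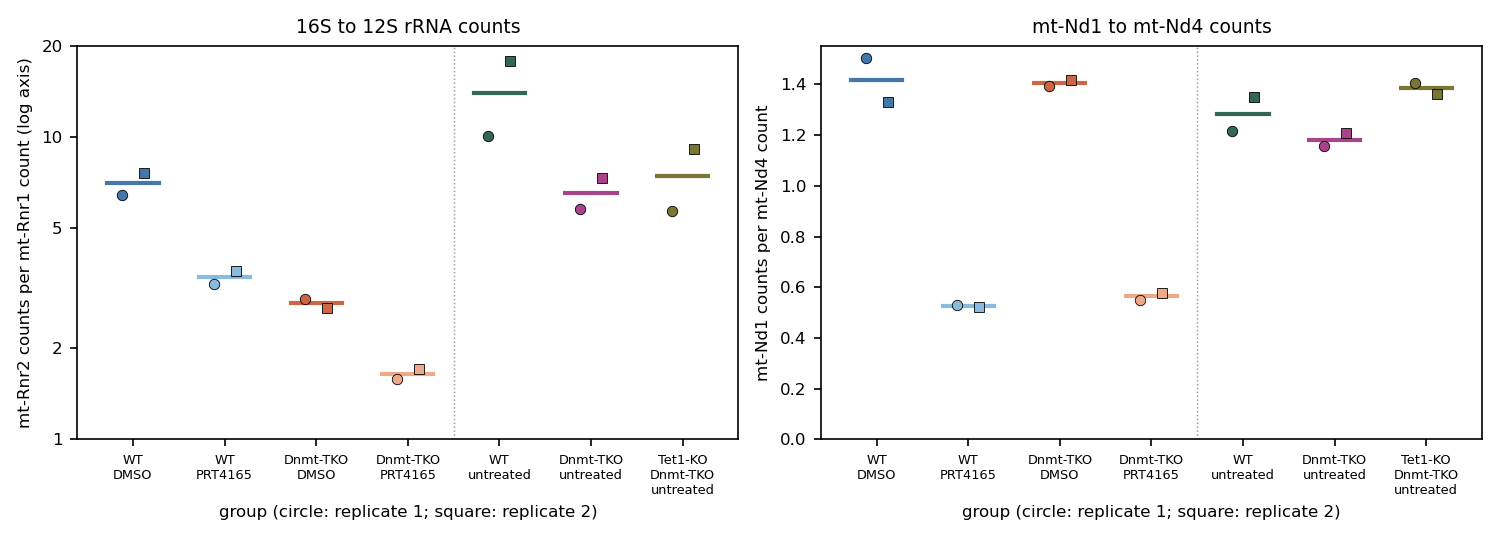
Counts of mt-Rnr2 per count of mt-Rnr1 (left, log axis) and of mt-Nd1 per count of mt-Nd4 (right) in each library, with circles for replicate 1, squares for replicate 2 and lines for group means. In the 4 PRT4165 libraries mt-Nd1 per mt-Nd4 was 0.522 to 0.578, and it was 1.16 to 1.504 in the other 10; the rRNA ratio ran from 1.58 to 17.9.

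A ratio of counts within a library needs no scaling between libraries. mt-Nd1 per mt-Nd4 was 1.504 and 1.33 in WT DMSO and 0.528 and 0.522 in WT PRT4165 libraries, and 1.40 and 1.42 and then 0.550 and 0.578 in TKO cells. Every PRT4165 library was below every other library of the study, experiment 2 included. Among the tested mRNAs mt-Nd1 had the largest and mt-Nd4 the smallest fall in each genotype, so this separation restates those changes. It is no further support for them. Both of the unlike WT DMSO libraries were far above the PRT4165 libraries on this ratio. mt-Nd5 per mt-Nd6, genes on opposite strands, was 3.76 and 4.59 in WT DMSO and 4.58 and 4.93 in WT PRT4165 libraries. In TKO libraries it was 4.60 and 4.59 with DMSO and 4.75 and 4.90 with PRT4165. These values covered a narrow range, and only WT DMSO replicate 1 stood lower. Strand was not marked, so mt-Nd6 counts may hold RNA of the opposite strand and the ratio does not compare the strands.

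Whether the change with PRT4165 differed between the genotypes was tested by the interaction, the change in TKO minus the change in WT cells. Of the 12 mRNAs, 3 passed, all with a smaller fall in TKO cells, where 3.89% of all genes tested were called, 1.77% in that direction and 2.12% in the other. They were mt-Co2, with a difference of 0.41 ± 0.0745 (SE; edgeR adjusted p = 0.00177), mt-Atp6 at 0.31 ± 0.0607 (SE; edgeR adjusted p = 0.00348) and mt-Co3 at 0.29 ± 0.0808 (SE; edgeR adjusted p = 0.0418). mt-Tp also passed, at 0.56 ± 0.158 (SE; edgeR adjusted p = 0.0449). The other 9 mRNAs and both rRNAs did not. For mt-Nd1 the difference was 0.18 ± 0.115 (SE; edgeR adjusted p = 0.435), with an interval from -0.049 to 0.41, which does not show equal falls. mt-Co1 and mt-Nd3 missed the threshold at 0.34 ± 0.110 (SE; edgeR adjusted p = 0.0839) and 0.22 ± 0.0675 (SE; edgeR adjusted p = 0.0708).

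The differences for mt-Co2 and mt-Atp6 kept their call in every alternative run, without each library in turn included. That of mt-Co3 was lost when any of 7 of the 8 libraries was left out, WT DMSO replicate 1 being the exception, and ranged from 0.16 to 0.41. That of mt-Tp was lost without any of 6 libraries and ranged from 0.44 to 0.67. The WT DMSO libraries moved the count most. Without replicate 1, all 12 mRNAs passed with a smaller fall in TKO cells. Without replicate 2, 2 passed in that direction and 3 in the other, namely mt-Nd2 at -0.46, mt-Nd4 at -0.24 and mt-Nd5 at -0.38 log2.

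**Figure D4:**
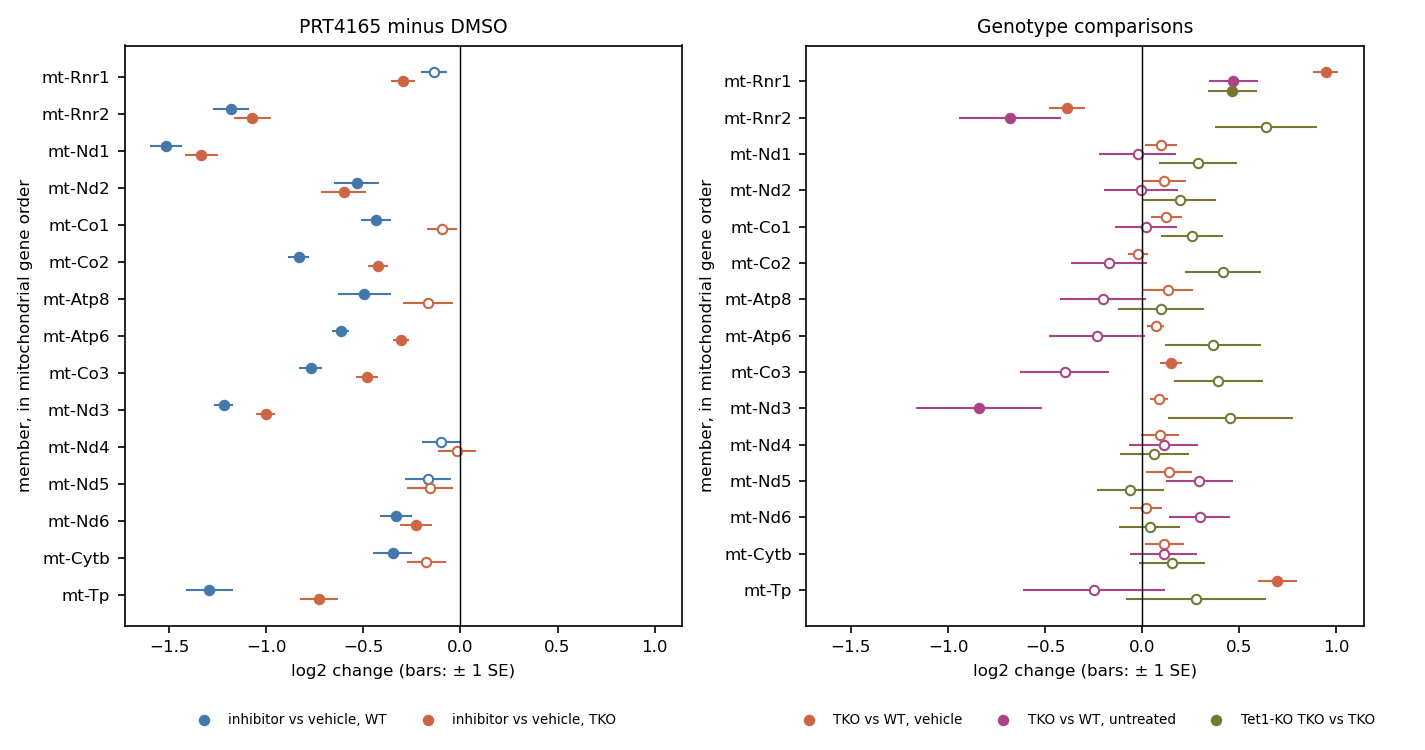
Log2 changes (horizontal axis, bars ± 1 SE) of the 15 tested members in gene order, for PRT4165 against DMSO in WT and TKO cells (left) and for 3 genotype comparisons (right); filled points passed adjusted p under 0.05. On the left, mt-Nd1 at -1.52 and -1.33 and mt-Nd3 at -1.22 and -1.003 lay farthest from 0 among the mRNAs, and on the right mt-Rnr1 was the one member called in all 3 comparisons.

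TKO cells with PRT4165 were also set against WT cells with DMSO, a comparison that shares its libraries with those above. Of 12 mRNAs 7 were lower and none higher (median log2 change -0.23), where 76.2% of all genes were called, 36.7% lower and 39.6% higher. mt-Nd1 differed by -1.24 ± 0.0827 (SE; edgeR adjusted p = 1.7e-12) and mt-Nd3 by -0.91 ± 0.0477 (SE; edgeR adjusted p = 1.42e-14). mt-Nd2, mt-Co2, mt-Co3, mt-Atp6 and mt-Nd6 were lower by smaller amounts, from -0.49 to -0.21 log2. The rRNAs went opposite ways. mt-Rnr2 was lower, at -1.46 ± 0.0945 (SE; edgeR adjusted p = 9.21e-13), and mt-Rnr1 higher, at 0.65 ± 0.0641 (SE; edgeR adjusted p = 2.3e-09). Without WT DMSO replicate 1 all 12 mRNAs were called lower, and without replicate 2, 5 were lower and 5 higher, namely mt-Co1 at 0.24, mt-Atp8 at 0.42, mt-Nd4 at 0.38, mt-Nd5 at 0.34 and mt-Cytb at 0.24. The calls of mt-Nd2 and mt-Nd6 were then lost, at -0.12 and -0.018, and that of mt-Nd6 also without TKO PRT4165 replicate 1, at -0.10.

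The next comparison asks how TKO cells differed from WT cells under DMSO. Most mitochondrial mRNAs gave no call: 1 of 12 was higher and none lower (median log2 change 0.10, against 0.01 over all genes), where 69.0% of all genes tested were called, 34.8% higher and 34.2% lower. mt-Rnr1 was higher in TKO cells and mt-Rnr2 lower, and mt-Tp was higher. mt-Rnr1 was at 139 and 172 CPM in WT and 290.2 and 309 CPM in TKO libraries, 1.93-fold higher (log2 change 0.94 ± 0.0642 SE, edgeR adjusted p = 2.91e-12). The TKO pair stood well above the WT pair. mt-Rnr2 was at 894 and 1314 CPM in WT and 843 and 843 CPM in TKO libraries (log2 change -0.39 ± 0.0924 SE, edgeR adjusted p = 0.000659). Its TKO values lay just under the lower WT value. mt-Tp was at 10.4 and 10.6 and 16.5 and 17.5 CPM (log2 change 0.69 ± 0.0994 SE, edgeR adjusted p = 1.23e-06), with no overlap.

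The mRNA called was mt-Co3, at 3026 and 3598 CPM in WT and 3625 and 3709 CPM in TKO libraries (log2 change 0.15 ± 0.0571 SE, edgeR adjusted p = 0.0256). The other 11 mRNAs had log2 changes from -0.021 (mt-Co2) to 0.14 (mt-Nd5). Their intervals of 2 SE reached from -0.15 to 0.39 at the widest. Narrow ones were those of mt-Nd3, from -0.00542 to 0.18, and mt-Atp6, from -0.017 to 0.15. Over all genes 34.8% were higher and 34.2% lower, the background of the counts that follow. The trophoblast markers, with 6 of 7 called higher, summed to 8.58 to 9.64 CPM in WT and 131.5 to 134.7 CPM in TKO libraries. Of the pluripotency markers 9 of 12 were lower and 3 higher, with sums of 7164 to 7273 and 5235 to 5269 CPM. Of 9 tested endoderm markers 7 were lower and 1 higher, with sums of 237 to 255 and 158 to 169.8 CPM. RNAs without poly(A) tails differed too. Replication-dependent histone RNAs took 0.00290 and 0.00277% of counts in WT and 0.00569 and 0.00550% in TKO libraries. Of 37 tested, 15 were higher and 0 lower, and the share higher was near that of all genes. Small nucleolar RNAs took 0.00979 and 0.00860% in WT and 0.0116 and 0.0117% in TKO libraries. The part of these was not tested.

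The direction for most mRNAs was set by which WT library was kept. Without WT DMSO replicate 1, 7 were called lower and none higher. Without replicate 2, 9 were called higher and none lower. mt-Nd5, for example, was at -0.19 and 0.50 log2 in these fits. The call of mt-Co3 was lost without WT DMSO replicate 1 (0.00674), TKO DMSO replicate 1 (0.17) or TKO DMSO replicate 2 (0.14). mt-Rnr1 and mt-Tp kept their calls in every alternative run, mt-Rnr1 at 0.78 and 1.09 log2 without either WT library. mt-Rnr2 was called without each library but ranged from -0.66 to -0.11, and was lost under DESeq2. Scaling to library size alone moved the median of all genes by 0.150 log2 and gave 9 mRNAs as higher, with mt-Co2 at 0.13 in place of -0.021.

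Untreated TKO and WT cells were compared in experiment 2, with libraries of their own. Of the 12 mRNAs, 1 was lower and none higher (median log2 change -0.015), where 50.2% of all genes tested were called, 24.3% lower and 25.9% higher. mt-Rnr1 was again higher in TKO cells, at 171 and 207 CPM in WT and 283 and 239.8 CPM in TKO libraries (log2 change 0.47 ± 0.126 SE, edgeR adjusted p = 0.00843). mt-Rnr2 was called lower, at 1732 and 3700.2 CPM in WT and 1634 and 1754 CPM in TKO libraries (log2 change -0.68 ± 0.262 SE, edgeR adjusted p = 0.0472), though 1 TKO value lay between the WT values. mt-Nd3, the mRNA called, was at 618 and 1688 CPM in WT and 609.8 and 677 CPM in TKO libraries (log2 change -0.84 ± 0.326 SE, edgeR adjusted p = 0.0484). Here, too, a TKO value lay between the WT values. The spread of the WT pair was wide for the other mRNAs as well, as in mt-Co3 at 6766 and 13436 CPM in WT and 7295 and 8021 CPM in TKO libraries (log2 change -0.40 ± 0.230 SE, edgeR adjusted p = 0.169), and mt-Nd1 at 3539.9 and 6208 and 4617 and 4973 CPM (log2 change -0.024 ± 0.200 SE, edgeR adjusted p = 0.932).

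None of the 3 calls held in every alternative. Without WT replicate 1, 8 mRNAs were called lower, and without WT replicate 2, 9 were called higher. mt-Nd3 was at -1.40 log2 in the first fit and 0.055 in the second, and mt-Rnr2 at -1.14 and -0.035. Both lost their call also without TKO replicate 1 (-0.77 and -0.63) or TKO replicate 2 (-0.92 and -0.73). mt-Rnr1 stayed between 0.32 and 0.61 log2 without either WT library, and lost its call without WT replicate 1 or TKO replicate 1 (0.34). mt-Rnr2 counts per mt-Rnr1 count were 10.1 and 17.9 in WT and 5.77 and 7.31 in TKO libraries, lower in TKO cells as under DMSO, and this ratio itself was not tested. Beside these values, 6 of 7 trophoblast markers were higher and 1 lower in TKO cells, where 25.9% and 24.3% of all genes were. Their sums were 7.02 to 7.24 CPM in WT and 21.8 to 25.8 CPM in TKO libraries. Of 8 tested endoderm markers 7 were lower, with sums of 171 to 317 and 74.7 to 123.3 CPM, and of the pluripotency markers 8 of 12 were lower and 2 higher. Small nucleolar RNAs took 0.0123 and 0.0179% of counts in WT and 0.0133 and 0.0177% in TKO libraries, with replicate 2 higher in both groups. Their part was not tested.

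**Figure D5:**
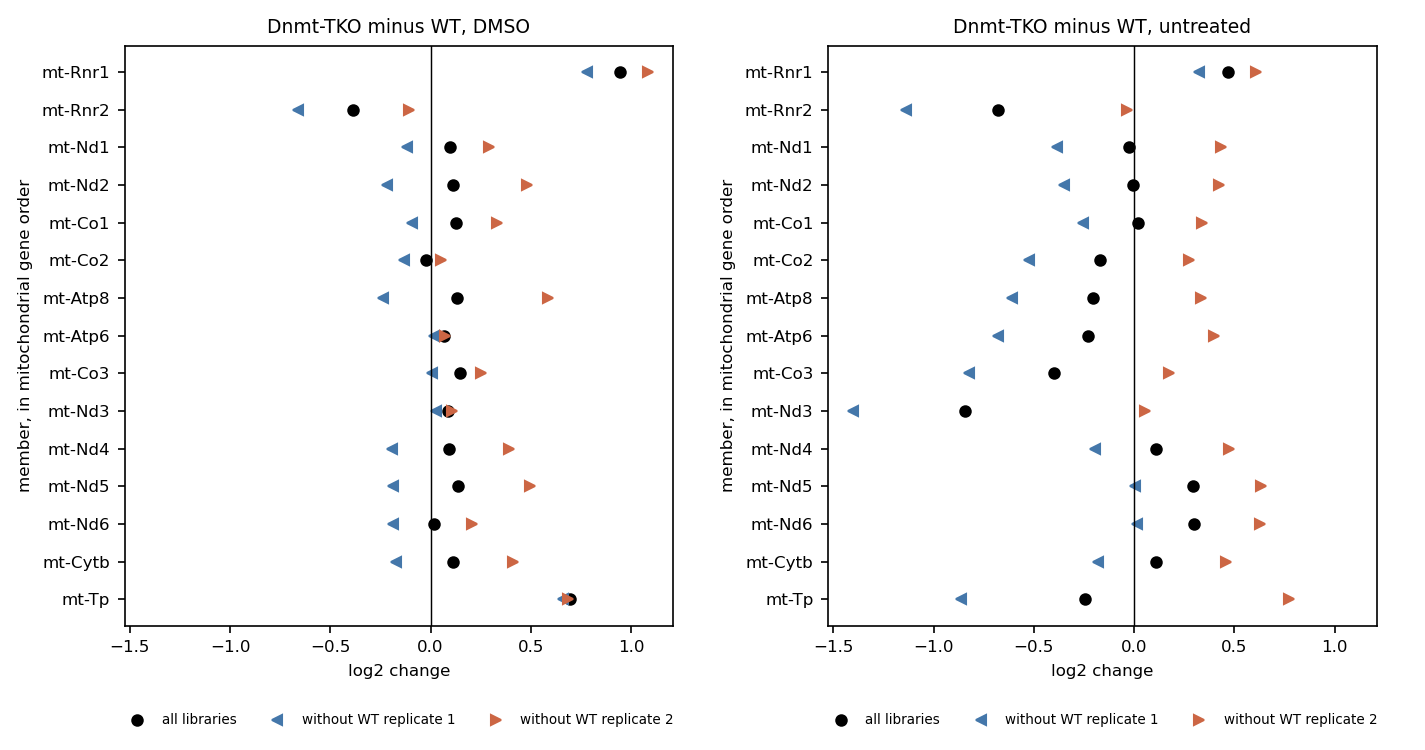
Log2 change of TKO against WT (horizontal axis) for the 15 tested members with all libraries (circles), without WT replicate 1 (left-pointing triangles) and without WT replicate 2 (right-pointing triangles), under DMSO (left) and untreated (right). mt-Rnr1 stayed above 0 in all 6 fits, at 0.32 to 1.09, while 9 mRNAs under DMSO had triangles on opposite sides of 0, such as mt-Nd5 at -0.19 and 0.50.

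Loss of Tet1 on top of the methyltransferases was compared with TKO cells and with WT cells, using the same untreated libraries as controls. Against TKO cells none of the 12 mRNAs was called by edgeR, none had an unadjusted p under 0.05, and DESeq2 called none either (median log2 change 0.23), where 22.0% of all genes tested were called, 11.6% higher and 10.4% lower. mt-Rnr1 was the only member called, at 283 and 239.8 CPM in TKO and 387 and 335 CPM in Tet1-KO TKO libraries (log2 change 0.46 ± 0.125 SE, edgeR adjusted p = 0.0205). Both Tet1-KO TKO values lay above both TKO values, and the call was lost without TKO replicate 2 (0.35) or Tet1-KO TKO replicate 1 (0.36). mt-Rnr2 was at 1634 and 1754 and 2212 and 3060.3 CPM, a change of 0.64 ± 0.262 (SE; edgeR adjusted p = 0.103) that did not pass. mt-Co2 had an interval from 0.025 to 0.80 and mt-Nd3 from -0.19 to 1.10, so changes of moderate size in these mRNAs were not excluded. Fits on these 4 libraries alone, or without the filter on low counts, each called 6 mRNAs higher.

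Against WT cells, mt-Rnr1 was higher again, at 171 and 207 CPM in WT and 387 and 335 CPM in Tet1-KO TKO libraries (log2 change 0.93 ± 0.126 SE, edgeR adjusted p = 7.23e-05), and this held in every alternative run. No mRNA was called by edgeR or DESeq2 and none had an unadjusted p under 0.05 (median log2 change 0.21), where 50.7% of all genes tested were called, 26.3% higher and 24.4% lower. Without WT replicate 1, 3 mRNAs were called lower, and without WT replicate 2 all 12 were called higher. mt-Co3, for example, was at -0.42 and 0.57 log2 in these fits, and without the filter on low counts 6 mRNAs were called higher and 1 lower. The trophoblast markers summed to 66.3 to 99.8 CPM in Tet1-KO TKO libraries, with 7 of 7 higher than in WT and 6 of 7 higher than in TKO cells. The endoderm markers summed there to 136 to 319 CPM. Of 8 tested, 2 were lower than in WT and 6 higher than in TKO cells, the latter a direction of 11.6% of all genes. Their part was not tested.

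Nuclear genes that work with these transcripts were listed by role. Of 71 nuclear subunits of complexes I, III, IV and V, 60 were lower and 2 higher in TKO than in WT cells under DMSO (median log2 change -0.37), where 34.2% of all genes were lower and 34.8% higher, beside the 12 mitochondrial mRNAs with none lower. Ndufs1, an iron-sulfur subunit of complex I, changed by -1.12 ± 0.0486 (SE; edgeR adjusted p = 4.92e-16), Cox5b of complex IV by -0.97 ± 0.0459 (SE; edgeR adjusted p = 2.57e-15), Uqcrc2 of complex III by -0.40 ± 0.0453 (SE; edgeR adjusted p = 2.65e-08) and Atp5j of complex V by -0.65 ± 0.0482 (SE; edgeR adjusted p = 1.39e-11). Without each library in turn, 52 to 61 were lower. Scaling to library size alone gave 44 lower and 6 higher, with a median of -0.22. Untreated, 43 of the 71 were lower and 2 higher, where 24.3% and 25.9% of all genes were, and 27 to 50 were lower without each library in turn. No test set the nuclear against the mitochondrial subunits.

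With PRT4165 the nuclear subunits showed no common direction: 13 of 71 were higher and 7 lower in WT cells and 8 higher and 9 lower in TKO cells, beside 10 and 7 mitochondrial mRNAs lower. Over all genes 19.0% were higher and 18.7% lower in WT cells and 19.9% and 19.6% in TKO cells, and these shares are the background of each PRT4165 count that follows. Cox5b rose by 0.27 and 0.24 log2, and Ndufa5 of complex I changed by -0.67 and -0.33. Without each library in turn the counts were 5 to 13 higher and 2 to 13 lower in WT cells, and 2 to 5 higher and 4 to 13 lower in TKO cells. A fit on the compared groups alone gave 14 higher and 16 lower in TKO cells, and DESeq2 gave 7 higher in WT cells. Among 24 genes of mitochondrial DNA transcription and maintenance, 6 were lower and 1 higher in WT cells with PRT4165, and 7 lower and 2 higher in TKO cells. The share lower in WT cells was near that of all genes. Polg, the catalytic subunit of the mitochondrial DNA polymerase, changed by -0.36 ± 0.0504 (SE; edgeR adjusted p = 5.27e-06) in WT and -0.33 ± 0.0480 (SE; edgeR adjusted p = 6.76e-06) in TKO cells. Twnk, the mitochondrial DNA helicase, changed by -0.36 ± 0.0519 (SE; edgeR adjusted p = 5.95e-06) in WT cells. Mterf1a, of the mitochondrial transcription termination factor family, changed by -1.18 ± 0.164 (SE; edgeR adjusted p = 4.2e-06) in WT and -1.16 ± 0.185 (SE; edgeR adjusted p = 2.27e-05) in TKO cells, at a low level. In TKO against WT cells under DMSO, 16 of the 24 were lower and 4 higher, where 34.2% and 34.8% of all genes were. Untreated, 10 were lower and 2 higher, where 24.3% and 25.9% of all genes were.

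Among 23 genes of mitochondrial RNA processing and stability, 7 were lower and 3 higher in WT cells with PRT4165, and 5 lower and 5 higher in TKO cells, the latter near the shares of all genes. Supv3l1, the helicase of the mitochondrial RNA degradosome, rose by 0.25 and 0.21 log2. Pde12, which trims poly(A) tails in mitochondria, had changes of -0.36 and -0.31 log2. In TKO against WT cells under DMSO, 2 were higher and 9 lower, where 34.8% and 34.2% of all genes were. In untreated TKO against WT cells, 9 were higher and 7 lower, where 25.9% and 24.3% of all genes were. Lrpprc, which holds mitochondrial mRNAs stable and polyadenylated, was higher, at 0.42 ± 0.0908 (SE; edgeR adjusted p = 0.00235). Elac2, which cuts the 3′ ends of mitochondrial tRNAs, was higher, at 0.61 ± 0.111 (SE; edgeR adjusted p = 0.00071), and was lower in Tet1-KO TKO than in TKO cells, at -0.43 ± 0.110 (SE; edgeR adjusted p = 0.0163). Of 76 proteins of the mitochondrial ribosome, 48 were lower and 8 higher in TKO than in WT cells under DMSO, where 34.2% of all genes were lower and 34.8% higher. With PRT4165, 18 of the 76 were lower in each genotype, with 11 higher in WT and 10 in TKO cells, near the shares of all genes for those lower.

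Of 15 mitochondrial chaperones and proteases, 5 were higher and 4 lower with PRT4165 in each genotype. The median log2 change of the list was -0.0092 in WT and -0.045 in TKO cells, against 0.012 and -0.0026 over all genes. Lonp1, the main matrix protease, rose by 0.41 ± 0.0424 (SE; edgeR adjusted p = 5.25e-08) in WT and 0.50 ± 0.0428 (SE; edgeR adjusted p = 2.64e-09) in TKO cells. The chaperonin Hspd1 and its partner Hspe1 rose by 0.30 and 0.38 log2 in WT cells and by 0.31 and 0.39 in TKO cells. Clpp, another matrix protease, rose by 0.32 and 0.54 log2. The members that went down included Afg3l2 of the inner membrane, at -0.27 and -0.17 log2. In TKO against WT cells under DMSO, 10 of the 15 were lower and none higher, where 34.2% and 34.8% of all genes were, with Hspe1 at -1.06 and Hspd1 at -0.95 log2.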

How the data were processed

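The authors deposited raw counts, whole numbers of reads per Ensembl gene and library, in 2 tables that match the experiments. The submitters' processing notes name HTSeq 0.5.3p9, TopHat2 2.0.2, Bowtie 0.12.8 and build mm9. The sources used here give no annotation release or strand setting. Symbols, gene order, lengths and sequences came from GENCODE M21 (GRCm38), which matched 32919 of the 37991 IDs, and IDs without a match held 0.482% to 0.85% of a library's counts. Nuclear copies were sought with blastn 2.17.0 at 98% identity over at least 100 bases.

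Each table was fitted on its own with edgeR 4.0.16 in R 4.3.3: TMM scaling, filterByExpr (min.count 10, min.total.count 15), a quasi-likelihood fit over all groups of the table and Benjamini-Hochberg adjustment over all genes tested (16711 and 16303). A gene was called at adjusted p under 0.05. Residual degrees of freedom were 4 and 3, and the common biological coefficient of variation was 3.73% and 10.5%, so smaller changes were detectable in experiment 1. The scripts were tested on simulated counts. CPM values are TMM-scaled within an experiment. SE is the log2 change divided by the square root of the F statistic, and intervals span 2 SE either way.

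Alternatives were other scalings, DESeq2 1.42.0, no filter, a replicate block, the compared groups alone and each library left out. All mRNAs and rRNAs are named, tRNAs where they passed the filter or are counted, and from each other list up to 4 called genes per direction with the smallest p and no overlap of libraries, of which the text gives a selection made after their values were seen. The members and lists were chosen with earlier results of these data known. Figures were drawn with matplotlib 3.10.9 in Python 3.11.15.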

Additional observations from a re-analysis of the deposited data

Results flagged for a closer look

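For 4 members the change with PRT4165 differed between TKO and WT cells by the interaction test. The difference, TKO minus WT, was 0.41 ± 0.0745 (SE; edgeR adjusted p = 0.00177) log2 for mt-Co2, 0.31 ± 0.0607 (SE; edgeR adjusted p = 0.00348) for mt-Atp6, 0.29 ± 0.0808 (SE; edgeR adjusted p = 0.0418) for mt-Co3 and 0.56 ± 0.158 (SE; edgeR adjusted p = 0.0449) for mt-Tp. In each, the fall was smaller in TKO cells: mt-Co2 changed by -0.83 in WT and -0.43 in TKO cells, mt-Atp6 by -0.62 and -0.31, mt-Co3 by -0.77 and -0.48, and mt-Tp by -1.29 and -0.73. Near-identical nuclear copies cover nearly all of mt-Co2, mt-Atp6 and mt-Co3. For mt-Tp, at 67 bases, the search could not find a copy, because it kept only matches of at least 100 bases. All 3 mRNAs called were among the 6 tested that have such a copy, and none of the 6 without one was called. Medians of the difference were 0.30 log2 in the 6 with a copy and 0.14 in the 6 without. mt-Co1, with a copy (0.34 ± 0.110 SE), and mt-Atp8, without one (0.33 ± 0.186 SE), differed more than mt-Atp6 and mt-Co3. Their SEs were larger, and neither was called. Whether reads from the nuclear copies played a part was not tested.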

How the results depend on the processing

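Without each library in turn, of the 12 mitochondrial mRNAs those lower with PRT4165 in WT cells numbered 6 to 12 and those higher 0 to 2; in the interaction 2 to 12 were higher and 0 to 3 lower; for TKO with PRT4165 against WT with DMSO, 0 to 5 were higher and 5 to 12 lower; for TKO against WT under DMSO, 0 to 9 and 0 to 7; untreated, 0 to 9 and 0 to 8; and for Tet1-KO TKO against WT, 0 to 12 and 0 to 3. With PRT4165 in TKO cells 6 to 7 were lower, and for Tet1-KO TKO against TKO none was called.

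DESeq2 gave 6 lower with PRT4165 in WT cells and 0 higher in TKO against WT under DMSO, where library size alone gave 9 higher, no filter 3 and the compared groups alone 2. For untreated TKO against WT, DESeq2, RLE scaling, TMM from nuclear genes and the compared groups alone gave 0 lower, and no filter gave 2 higher and 2 lower. With no filter, 5 were higher in the interaction, and 6 higher with 1 lower in Tet1-KO TKO against WT cells. Against TKO cells, no filter and the compared groups alone each gave 6 higher. Why these counts moved was not tested. Library size alone gave mt-Co2 a change of 0.13 in TKO against WT under DMSO.

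Members whose direction turned without 1 library, and that were called either with all libraries or in the turned fit, had these log2 ranges. With PRT4165 in WT cells, mt-Nd4 ranged from -0.35 to 0.23 and mt-Nd5 from -0.46 to 0.22. In the interaction, mt-Nd2 ranged from -0.46 to 0.24, mt-Nd4 from -0.24 to 0.34 and mt-Nd5 from -0.38 to 0.31. For TKO with PRT4165 against WT with DMSO, mt-Atp8 ranged from -0.40 to 0.42, mt-Co1 from -0.19 to 0.24, mt-Cytb from -0.34 to 0.24, mt-Nd4 from -0.21 to 0.38 and mt-Nd5 from -0.34 to 0.34. For TKO against WT under DMSO, mt-Atp8 ranged from -0.24 to 0.58, mt-Cytb from -0.17 to 0.41, mt-Nd2 from -0.22 to 0.48, mt-Nd4 from -0.19 to 0.39, mt-Nd5 from -0.19 to 0.50 and mt-Nd6 from -0.19 to 0.21, and without a call mt-Nd1 turned as well, from -0.12 to 0.29, mt-Co1 from -0.095 to 0.33 and mt-Co2 from -0.13 to 0.052. In the other comparisons members not called in the turned fit or with all libraries are not listed. Untreated, mt-Atp6 ranged from -0.68 to 0.40, mt-Co1 from -0.25 to 0.34, mt-Co2 from -0.52 to 0.27, mt-Nd1 from -0.38 to 0.43, mt-Nd2 from -0.35 to 0.43, mt-Nd3 from -1.40 to 0.055 and mt-Tp from -0.86 to 0.77. For Tet1-KO TKO against WT, mt-Atp8 ranged from -0.51 to 0.43, mt-Co3 from -0.42 to 0.57, mt-Nd3 from -0.94 to 0.51, mt-Rnr2 from -0.50 to 0.61 and mt-Tp from -0.58 to 1.05. The cause was not tested.

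Set against nuclear protein-coding counts, the mitochondrial mRNA share was 1.95% in WT PRT4165, 3.51% in TKO DMSO and 5.69% in untreated TKO cells, on average. The rRNA share was then 0.0616% in WT PRT4165, 0.128% in TKO DMSO, 0.0710% in TKO PRT4165 and 0.217% in untreated TKO cells, and the tRNA share 0.00104% in WT DMSO and 0.00191% in TKO DMSO cells. These denominators leave out other counts, so each share rises by construction.

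Same-numbered libraries correlated by -0.034 to 0.038 in experiment 1 and 0.111 to 0.236 in experiment 2 after group means were removed. The labels name no culture or day that a number shares, and 2 numbers are too few to show pairing, so the numbers were not taken as pairs. A replicate block gave 1 mRNA, mt-Nd6, as higher in untreated TKO and 1, also mt-Nd6, in Tet1-KO TKO against WT cells (0.32 and 0.36 log2), called mt-Rnr2 higher in Tet1-KO TKO than in TKO cells (0.60) and mt-Nd3 in the interaction (0.21), and moved no other count of mitochondrial mRNAs by over 1.5 times. Counts of 3 or fewer, as for mt-Nd4l and most tRNAs, allow no comparison at this depth.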
